A study of Mus musculus with 12 samples.

Results

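The libraries described here are the 6 of 12 in the series whose titles end in -M: 3 from male control mice and 3 from male mice with a conditional knockout (cKO) of Atrx, all aged 3 months. They are called controls 1 to 3 and cKO 1 to 3 after the numbers in their titles. All annotated genes were read, and the comparison is cKO against control within these 6 libraries. Hippocampal total RNA was sequenced after ribosomal RNA had been removed. The deletion is in neurons by the title of the series, while the RNA comes from whole hippocampus or, in the wording of the sample labels, hippocampal cells, so transcripts of glia, vessels and any neurons that keep the gene are measured too. In such RNA, fewer cells of a type and less RNA per cell cannot be told apart. The Cre driver, the deleted exons, the strain and the genotype of the controls beyond the word control are not given in the sources used here. According to the design text there were 3 pairs of mice, but it does not tie each library to 1 mouse, so p-values measure the spread between these libraries.

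ATRX is a chromatin remodeller of the SNF2 family that works with the chaperone DAXX to place the histone variant H3.3 at repeats, telomeres and other heterochromatin, and it binds G-rich tandem repeats. Mutations of the human gene on the X chromosome cause a syndrome of intellectual disability with alpha thalassaemia. Males have a single copy of the gene, and in neurons of mice its loss has been tied to memory and synaptic function.

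Depth and unspecific coverage differed between the libraries. Mapped sequence was 7.12, 8.19 and 7.99 Gb in controls 1 to 3 and 8.49, 3.66 and 8.64 Gb in cKO 1 to 3. The median FPKM (fragments per kilobase of transcript, scaled to the fragments mapped) of 1459 olfactory and vomeronasal receptor genes, which the hippocampus has no use for, ran from 0.0102 to 0.0497 in the controls and was 0.0362, 0.450 and 0.0341 in the cKO libraries. Thus cKO 2 had the least sequence and the highest background, and it listed 30802 genes at 0.5 FPKM or more against 17146 to 18901 in the others. Pearson correlations of log2 FPKM between libraries were 0.960 to 0.976 across genes, which are not independent replicates. The labels of tissue and sex matched the markers: all 8 CA1 markers, 10 of 11 CA2 and CA3 markers and 10 of 11 dentate granule markers were expressed. Of the dentate markers, Pla2g2f reached 1 FPKM in the cKO libraries only. Xist was at most 0.233 FPKM in any library, and the Y-linked Ddx3y had 26.5 to 36.4 FPKM in all 6. The other Y-linked genes, Eif2s3y, Kdm5d and Uty, were expressed in all 6 too, with at least 27.1, 5.49 and 9.57 FPKM.

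**Figure D1:**
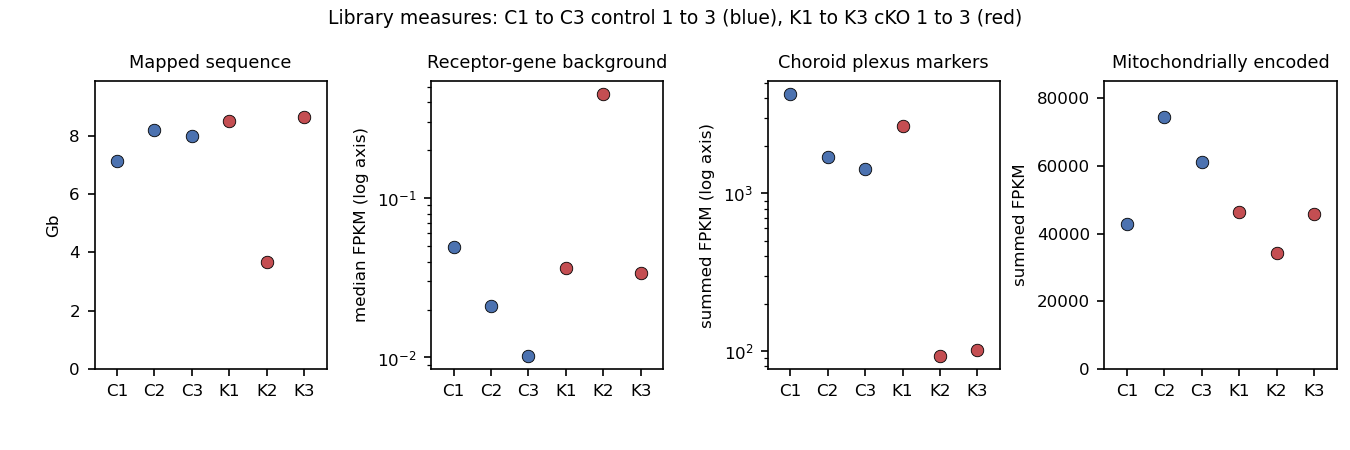
Mapped sequence in Gb, median FPKM of receptor genes (log axis), summed FPKM of choroid plexus markers (log axis) and summed FPKM of mitochondrially encoded genes, 1 point per library. cKO 2 stands apart by its 3.66 Gb and its background of 0.450 FPKM, and cKO 2 and 3 have the lowest choroid plexus sums, 93.1 and 101.

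Atrx itself was lower in every cKO library, though most of its RNA remained. Its deposited FPKM, summed over its transcripts, was 46.9, 40.2 and 42.1 in controls 1 to 3 and 34.2, 32.3 and 36.5 in cKO 1 to 3. The highest cKO library lay below the lowest control. The means were 43.05 ± 3.44 and 34.3 ± 2.09 FPKM (SD, n = 3 each), so the cKO libraries held 79.7% of the control level. An exact two-sided permutation test gave p = 0.1, the smallest value 3 libraries against 3 allow. In the limma fit over all genes the log2 difference was −0.34 (SE 0.0922, adjusted p = 0.85). Atrx (ENSMUSG00000031229) lies on the minus strand at chrX:105797615-105929403.

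The annotated transcripts of Atrx did not all share this difference. The full-length transcript ENSMUST00000113573, with 35 exons, had 21.1, 19.98 and 21.3 FPKM in the controls and 12.9, 12.2 and 14.9 in the cKO libraries, with means of 20.8 ± 0.688 and 13.3 ± 1.41 (n = 3, exact permutation p = 0.1). Some short transcripts from the 5′ end of the gene were lower in every cKO library, such as ENSMUST00000130980 with 1.41 ± 0.167 and 0.675 ± 0.0969 FPKM and ENSMUST00000137453 with 1.14 ± 0.0874 and 0.663 ± 0.111. Others overlapped, and ENSMUST00000128968 had 8.03 FPKM in cKO 3 and at most 0.397 in the other 5 libraries. ENSMUST00000200471, 2 exons within the gene, lay on the other side, with 1.14, 1.148 and 1.17 FPKM in the controls and 1.30, 1.70 and 1.34 in the cKO libraries. How the deposited estimates divide reads between transcripts that overlap was not tested.

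Across all genes, the comparison asked which transcripts of the male hippocampus differ when neurons lack Atrx. A gene was tested when it had at least 1 FPKM in at least 3 of the 6 libraries, which left 15414 of 54532 genes. In the limma fit no gene passed an adjusted p of 0.05, a share of 0% in either direction. At an unadjusted p under 0.05 there were 870 genes (5.64%), of which 562 (3.65%) were higher and 308 (2.00%) lower in the cKO libraries. The voom method on estimated reads called 5 genes, and limma with library weights called 9. The weights were 3.63, 0.390 and 0.608 for cKO 1 to 3, so cKO 1 counted most among the cKO libraries in that setting. Il6st, Jph3, Pla2g2f and Tex13c2 were called by both, Ppp1r12c by voom only, and Mtfp1, Cep112, 1110051M20Rik, Zfp664 and Mir6991 with library weights only. Groups that did not overlap, all 3 cKO libraries on 1 side of all 3 controls on scaled FPKM, were seen for 1042 genes higher in cKO (6.76%) and 753 lower (4.89%). On deposited FPKM the shares were 6.59% and 3.13%. The share of higher genes moved with the scaling and filter: 58.1% of these genes were higher on scaled FPKM, 67.8% on deposited FPKM, 50.3% after subtraction of the receptor-gene background and 82.3% with no filter on low values.

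The differences also moved with gene level. The median log2 difference over all genes tested was 0.03. It was 0.12 among the 2753 genes with a mean under 2 FPKM and −0.04 among the 568 genes over 100 FPKM. In the first class 9.01% of genes did not overlap and were higher in cKO, and in the second 7.39% did not overlap and were lower. cKO 2, with its high background, is 1 of the 3 cKO libraries; without it the median over all genes was 0.01.

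**Figure D2:**
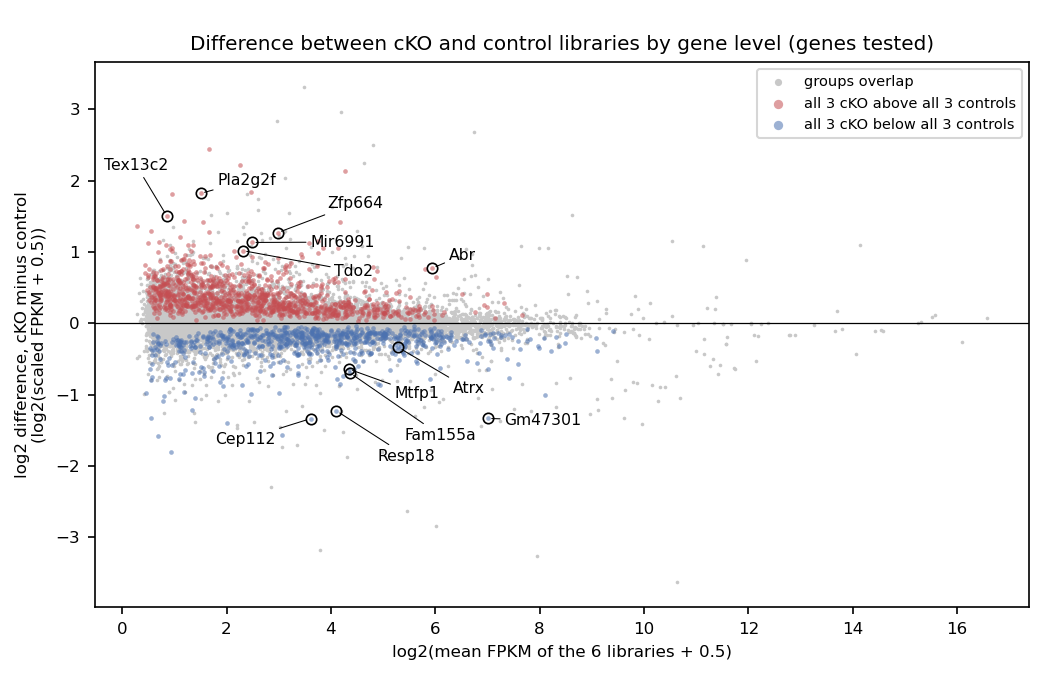
Each point is a tested gene, placed by the log2 of its mean FPKM plus 0.5 (x axis) and by its log2 difference, cKO minus control (y axis). Red and blue points are the 1042 and 753 genes whose groups did not overlap, and circles mark named genes, among them Pla2g2f at 1.82 and Cep112 at −1.34.

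The 12 highest-ranked genes by p on either side are described next. None of these 24 passed, with adjusted p from 0.0749 to 0.85, and all 24 separated the groups on scaled and on deposited FPKM, which a gene ranked this high can hardly fail to do. Mean FPKM was 1.501 to 5.27 times as high in cKO for the 12 higher genes, and 1.32 to 2.61 times as high in controls for the 12 lower genes. Of the 24, 10 passed in at least 1 of 20 other settings.

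Among genes higher in cKO, Pla2g2f led. It encodes a secreted phospholipase A2, an enzyme that releases fatty acids from phospholipids outside the cell. It had 0.614, 0.724 and 0.896 FPKM in the controls and 4.07, 3.60 and 4.10 in the cKO libraries. The lowest cKO library was over 4 times the highest control. The means were 0.745 ± 0.142 and 3.92 ± 0.28 FPKM (SD, n = 3), 5.27 times as high in cKO, with a log2 difference of 1.82 (SE 0.159, adjusted p = 0.0749). All 3 controls were below the filter of 1 FPKM, so the gene was tested only through its cKO values. It passed in 6 of the 16 other settings in which it was tested, with adjusted p from 0.0165 to 0.413. The gene (ENSMUSG00000028749) lies on the minus strand at chr4:138750533-138757626 and has a single annotated transcript of 5 exons.

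Other secreted or membrane-linked phospholipases and lipoxygenases did not share this difference. Of 21 listed genes of that kind 12 were tested, 1 was separated higher (Pla2g2f) and 1 lower, and the median log2 difference was 0.05 (−0.10 without cKO 2), beside 6.76% and 4.89% of all genes separated. Pla2g2f was known from earlier results of these data when the list was made, so its count cannot be set against the share of higher genes. The lower gene was Pla2g7, a phospholipase that degrades platelet-activating factor, with 77.7 ± 5.96 and 69.2 ± 4.90 FPKM. The cyclooxygenase gene Ptgs1 had 3.05 ± 0.213 and 3.57 ± 0.531 FPKM with overlapping groups.

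Tex13c2, an X-linked member of a testis-expressed family, was low in controls, with 0.365, 0.472 and 0.483 FPKM, and had 2.38, 2.01 and 2.16 in the cKO libraries. The groups lay far apart, with means of 0.440 ± 0.0652 and 2.18 ± 0.19 FPKM (log2 1.50, SE 0.165, adjusted p = 0.117). Like Pla2g2f, Tex13c2 met the filter of 1 FPKM through the cKO libraries only. It has 1 exon at chrX:42489691-42491524. Tdo2, which encodes tryptophan dioxygenase, the first enzyme of the kynurenine pathway and a marker of mature dentate granule cells in mice, had 2.57, 2.63 and 3.02 FPKM in the controls and 5.17, 6.83 and 6.50 in the cKO libraries. Every cKO library exceeded every control (log2 1.02, SE 0.152, adjusted p = 0.358).

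Il6st encodes gp130, the signal-transducing receptor subunit shared by cytokines of the interleukin 6 family. It had 6.31, 5.74 and 5.77 FPKM in the controls and 10.3, 9.75 and 10.1 in the cKO libraries, and its SDs of 0.322 and 0.294 were small beside the difference of the means, 5.94 and 10.1. The log2 difference was 0.70 (SE 0.0906, adjusted p = 0.192). Stat5b, a transcription factor activated by cytokine and growth hormone receptors, had 2.15, 1.99 and 2.14 FPKM in the controls and 4.87, 3.90 and 3.94 in the cKO libraries (log2 0.85, adjusted p = 0.358). Zfp664, a zinc finger gene, had 3.91, 3.59 and 4.77 against 11.2, 9.47 and 11.3 FPKM (log2 1.27, SE 0.139, adjusted p = 0.117). In both, no cKO library reached down to the controls.

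Abr, an activator of GTP hydrolysis by RAC and CDC42 that is strong in neurons, had 44.5 ± 6.47 FPKM in the controls and 77.2 ± 9.02 in the cKO libraries (n = 3). The RNA-binding protein gene Larp4 had 10.1 ± 0.612 and 15.2 ± 1.55, and Pgam2, the muscle form of the glycolytic enzyme phosphoglycerate mutase, had 5.87 ± 0.351 and 9.51 ± 0.844. Their log2 differences were 0.77, 0.54 and 0.63, with adjusted p from 0.404 to 0.594. The noncoding genes were Gm35037, a long intergenic RNA with 1.01 ± 0.164 and 2.75 ± 0.233 FPKM, and Gm23136, a small nucleolar RNA inside Rpl4 with 3.29 ± 0.309 and 6.87 ± 1.20. Reads of a short RNA inside a host gene cannot be told from those of the host in these tables.

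The same limit holds for Mir6991, the microRNA entry with the third smallest p. It had 3.14, 3.02 and 2.78 FPKM in the controls and 7.35, 6.99 and 7.29 in the cKO libraries, the groups far apart (log2 1.13, SE 0.108, adjusted p = 0.0749). The entry, at chr19:7422573-7422642 on the plus strand, is the hairpin and lies within 2700081O15Rik on the same strand, and mature microRNAs were not measured. Its mature arms, from RefSeq on GRCm38.p6, are shown with the seed, bases 2 to 8, in capitals. The 5′ arm is at chr19:7422578-7422599 and the 3′ arm at chr19:7422621-7422642.
miR-6991-5p: uGGAGAACagggacugggccug
miR-6991-3p: gCAGCCCUuuguucuucuccag

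Among genes lower in cKO, Cep112, which encodes a protein of the centrosome, had the smallest p. It had 15.3, 18.1 and 17.4 FPKM in the controls and 6.89, 5.89 and 6.71 in the cKO libraries. No cKO library came near the controls, and the mean was 2.61 times as high in controls, with 17.0 ± 1.48 against 6.498 ± 0.533 (SD, n = 3). The log2 difference was −1.34 (SE 0.125, adjusted p = 0.0749), and over the other settings the adjusted p ran from 0.0165 to 0.934. Cep112 (ENSMUSG00000020728) spans chr11:108425192-108860615 on the plus strand and overlaps the noncoding Cep112it and Cep112os1.

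Mtfp1, whose product sits in the inner membrane of mitochondria and favours their fission, had 25.0, 23.2 and 24.01 FPKM in the controls and 16.4, 15.3 and 14.7 in the cKO libraries. Both groups were tight, with SDs of 0.891 and 0.843, and the means of 24.1 and 15.5 FPKM gave a log2 difference of −0.64 (SE 0.0761, adjusted p = 0.135). Over 20 other settings its log2 difference stayed between −0.68 and −0.61. It lies at chr11:4091480-4095445, minus strand. Nefh, the heavy neurofilament subunit of large axons, had 19.1, 16.01 and 17.3 FPKM in the controls and 12.8, 12.3 and 11.5 in the cKO libraries (log2 −0.52, SE 0.0835, adjusted p = 0.404). Fam155a, which helps the leak channel NALCN reach the cell surface, had 25.0, 23.9 and 25.8 FPKM in the controls and 15.8, 17.9 and 12.7 in the cKO libraries (log2 −0.70, SE 0.119, adjusted p = 0.52). In all 3 genes the lowest control exceeded the highest cKO library.

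**Figure D3:**
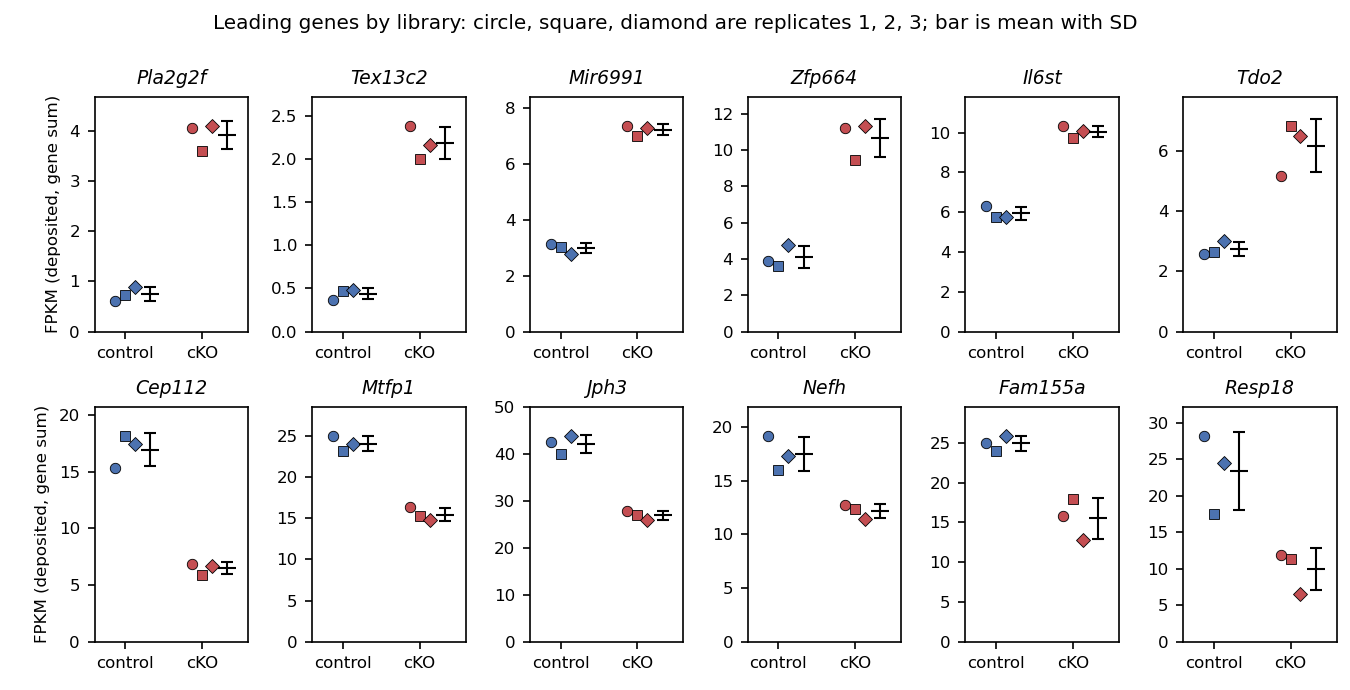
Deposited FPKM of 12 of the 24 leading genes in each library (y axis from 0), with the mean and SD of 3 libraries beside the points. The upper row shows genes higher in cKO, such as Pla2g2f at 0.745 and 3.92 FPKM, and the lower row genes lower in cKO, such as Cep112 at 17.0 and 6.498 FPKM.

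Jph3, a junctophilin that holds the endoplasmic reticulum close to the plasma membrane in neurons, had 42.5, 39.9 and 43.8 FPKM in the controls and 27.9, 26.9 and 25.95 in the cKO libraries (log2 −0.65, SE 0.0762, adjusted p = 0.135). Ppp1r12c, a regulatory subunit of protein phosphatase 1, had 21.2 ± 1.18 and 12.4 ± 2.23 FPKM, and Ddx6, an RNA helicase of cytoplasmic RNA granules, had 29.4 ± 1.90 and 22.3 ± 0.746. Resp18, a protein of neuroendocrine secretory granules, had 28.2, 17.5 and 24.5 FPKM in the controls and 11.9, 11.4 and 6.60 in the cKO libraries, a log2 difference of −1.23 (SE 0.232, adjusted p = 0.717). Its controls spread widely, and the groups still did not overlap. Gpx8, a peroxidase of the endoplasmic reticulum, had 8.07 ± 0.129 and 5.25 ± 0.82 FPKM.

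The other lower genes in this group are less defined. They were 1110051M20Rik, a protein-coding gene with 22.96 ± 1.90 and 13.8 ± 1.16 FPKM, the long intergenic RNA Gm34466 with 6.82 ± 0.759 and 3.21 ± 0.346, and Gm47301, a microRNA entry that overlaps a 5S ribosomal RNA entry, with 199.7, 210.01 and 136.1 FPKM in the controls and 77.8, 52.2 and 90.2 in the cKO libraries. The ribosomal RNA entries CT010467.1 and n-R5s88 were named for a large difference on the lower side. Their direction was thus set by that choice and does not describe such entries as a class. CT010467.1 had 376, 384 and 321 FPKM against 147, 284 and 142, and n-R5s88 had 2.08, 4.55 and 2.39 against 1.07, 0.477 and 1.51. Removal of ribosomal RNA during library preparation acts on such entries, and its part was not tested.

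By size of difference, 10 more genes were named, all with an adjusted p of 0.85 or 0.852. Groups that did not overlap and an unadjusted limma p under 0.05 were conditions of this choice, so neither is a result. Gpr39, a zinc-sensing receptor, had 0.838, 0.955 and 0.348 FPKM in the controls and 3.81, 2.98 and 1.72 in the cKO libraries (log2 1.43, SE 0.302). It met the filter of 1 FPKM through the cKO libraries only. Slc13a4, a sulfate transporter of the meninges and choroid plexus, had 3.46, 3.10 and 2.37 against 1.72, 0.58 and 1.49 FPKM (log2 −1.05, SE 0.292). Gm25944, a small nucleolar RNA inside Snhg14, had 11.7, 2.69 and 7.56 against 27.9, 25.3 and 37.3 FPKM. In Gm10128, RF01953, Gm7125 and Zfp422 the controls were uneven and the highest of them lay nearest the cKO libraries. Gm10128, for example, was listed at 2.59, 0 and 0 FPKM in the controls and at 4.48, 4.56 and 4.38 in the cKO libraries. A830036E02Rik, antisense to the keratin gene Krt12, had 3.09, 2.19 and 1.95 against 0.181, 1.04 and 0.0412 FPKM.

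A gene total here is a sum over annotated transcripts, and for some leading genes the transcript with most of the FPKM differed between libraries. In Jph3 the 5-exon transcript ENSMUST00000026357 had 39.9, 37.1 and 41.2 FPKM in the controls and 2.76, 3.14 and 2.50 in the cKO libraries. The 6-exon ENSMUST00000167439 had 2.47, 2.46 and 2.27 against 24.9, 23.2 and 23.0, so the transcript that led changed with genotype in all 6 libraries. The same pair of transcripts changed places within a genotype in the female libraries of the series, where ENSMUST00000026357 had 36.3, 45.7 and 2.78 FPKM in the 3 controls. In Abr, ENSMUST00000065028 had 49.5, 51.6 and 0.01 FPKM in cKO 1 to 3 and ENSMUST00000108407 had 0.07, 0.22 and 58.5. Such changes of the leading transcript by group were seen in 51 of the 15414 genes tested (0.331%) and in 1 of the 50 genes of smallest p. Pla2g2f, Mir6991, Tex13c2, Nefh, Pgam2, Gm35037, Gm23136, Gm34466 and Gm47301 have 1 annotated transcript each. Zfp664, Il6st, Tdo2, Larp4, Mtfp1, Fam155a, Ddx6 and Resp18 kept the same leading transcript in all 6 libraries. Cep112, Stat5b, Ppp1r12c, Gpx8 and 1110051M20Rik did not. In Cep112 the 8-exon transcript ENSMUST00000129814, of 18 annotated, had 7.33, 8.34 and 9.91 FPKM in the controls. It had 0.607, 0.009 and 2.24 in the cKO libraries. When the 10577 genes with 1 leading transcript in all 6 libraries were tested alone, a setting chosen after seeing the data, Pla2g2f and Mir6991 passed (both higher in cKO).

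The genes at the top of the ranking were not spread evenly over the chromosomes, a pattern noticed after seeing the data and given without a test. Chromosome 11 held 13 of the 50 genes of smallest p (26%) and 7.38% of the genes tested. They ran from Mtfp1 near one end of the chromosome to Cep112 near the other, 6 higher and 7 lower in cKO, but were unevenly placed. Mtfp1, Nefh and Pgam2 lay at 4091480 to 5803733, and the next 52.1 Mb held none of them. Another group lay at 90336536 to 100850724. Besides genes named above they were Rnf112, a brain ubiquitin ligase (40.5 ± 5.94 and 70.1 ± 14.2 FPKM), the circadian transcription factor Hlf (12.2 ± 3.02 and 7.32 ± 0.514), the insulin-like growth factor binding protein Igfbp4 (13.6 ± 0.697 and 9.36 ± 1.14), the splicing factor Cwc25 (4.46 ± 0.113 and 6.61 ± 0.638), Rsad1 (1.32 ± 0.225 and 0.440 ± 0.196) and the pseudogene Gm12245 (5.07 ± 0.70 and 8.42 ± 0.601). Rsad1 met the filter of 1 FPKM through the controls only. The number on chromosome 11 ran from 5 to 14 of 50 over the other settings, and among the 200 genes of smallest p it was 20 (10%). Over all its tested genes, 14.4% had groups that did not overlap, against 11.6% of all genes tested.

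**Figure D4:**
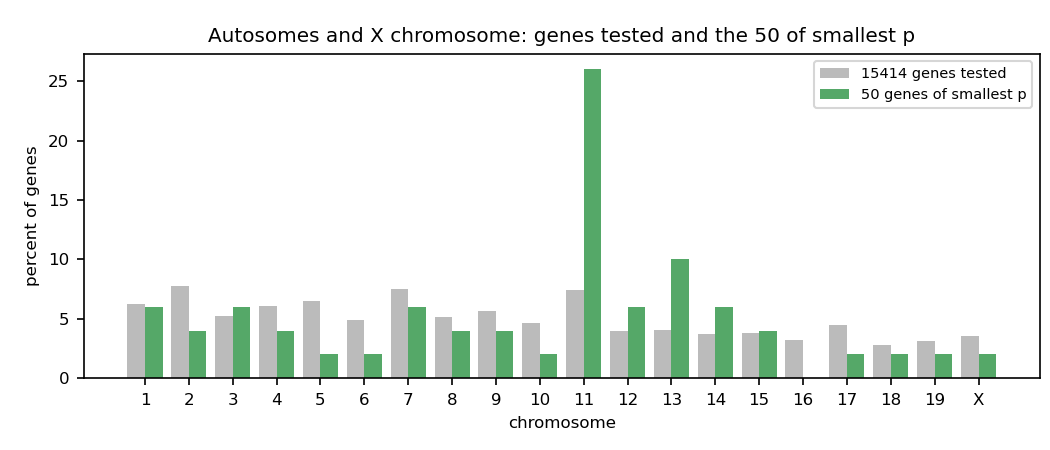
Share of the 15414 genes tested (grey bars) and of the 50 genes of smallest p (green bars) on each autosome and the X chromosome, in percent. Chromosome 11 holds 26% of the 50 and 7.38% of the genes tested.

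The stretch upstream of the start site is shown for Pla2g2f and Mtfp1, on either side the top-ranked gene that kept 1 leading transcript and has a promoter in the RefSeq table, because ATRX is known to bind G-rich DNA. Each is 250 bases on GRCm38.p6, 5′ to 3′ on the strand of the gene, with every run of GGG or CCC or longer in capitals. A run of C is a run of G on the other strand.
Pla2g2f chr4:138757599-138757848, minus strand: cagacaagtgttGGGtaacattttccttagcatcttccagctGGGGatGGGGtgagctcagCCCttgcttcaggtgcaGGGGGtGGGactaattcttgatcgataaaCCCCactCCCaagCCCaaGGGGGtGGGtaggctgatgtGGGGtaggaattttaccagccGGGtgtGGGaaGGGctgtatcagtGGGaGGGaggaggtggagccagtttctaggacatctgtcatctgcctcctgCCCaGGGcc
Mtfp1 chr11:4095432-4095681, minus strand: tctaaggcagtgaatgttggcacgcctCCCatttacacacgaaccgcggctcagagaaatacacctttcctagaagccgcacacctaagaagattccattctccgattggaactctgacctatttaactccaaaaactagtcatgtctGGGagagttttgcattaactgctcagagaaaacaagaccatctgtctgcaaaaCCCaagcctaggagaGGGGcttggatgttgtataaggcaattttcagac
The window of Pla2g2f held 14 runs of G and 5 of C, and that of Mtfp1 held 2 and 2, against a median of 8 runs of either kind over 32851 such windows. That of Cep112, the lower gene of smallest p, held 6 and 7 and is not printed. A stricter motif was 4 runs of GGG with 1 to 7 bases of any kind between them on either strand. The windows of Pla2g2f, Mtfp1 and Cep112 did not hold this motif. It was in 16.7% of all windows, in 28.6% of the 10100 genes tested that have one, and in 4 of the 17 leading genes that have one (Zfp664, Stat5b, Abr and Jph3). These are matches of letters and no measure of binding.

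The partners of ATRX showed little difference. Of 27 genes for H3.3 deposition, heterochromatin and cohesin 25 were tested, the median log2 difference was 0.00 beside 0.03 for all genes, none was separated higher and 1 (4%) lower, beside 4.89% of all genes. With 1 library left out the list median ran from −0.01 to 0.03. That gene was Rad21, the cleavable subunit of cohesin, with 31.5, 29.2 and 30.3 FPKM in the controls and 27.1, 23.6 and 25.5 in the cKO libraries (log2 −0.27, SE 0.0836, adjusted p = 0.85). H3f3a, 1 of 2 genes for histone H3.3, had 121 ± 20.5 and 149 ± 9.07 FPKM with overlapping groups. The silencing factors Trim28 and Setdb1 both had log2 differences of 0.14 and overlapped.

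Reported ATRX targets lay on both sides. Of 18 listed, some of them named from earlier results of these data, 15 were in the tables and 11 were tested, 1 separated higher (Tex13c2) and 2 lower, beside 6.76% and 4.89% of all genes. Tex13c2 was tested only through its cKO values. Csf2ra, the ligand-binding chain of the GM-CSF receptor, had 2.38, 1.69 and 1.52 FPKM in the controls and 0.977, 1.05 and 0.66 in the cKO libraries, all 3 cKO libraries below the controls (log2 −0.77, SE 0.195, adjusted p = 0.85). Camk2a, the kinase of hippocampal synaptic plasticity, had 103, 81.4 and 87.8 against 76.8, 74.3 and 78.5 FPKM (log2 −0.26). The alpha globin gene Hba-a1, whose human counterpart has reduced expression in the ATRX syndrome, had 69.7 ± 3.40 and 56.7 ± 12.2 FPKM. Its groups overlapped. Reads of Hba-a1 and its near copy Hba-a2 may be split between them.

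The title of the series names a change of miR-137, a microRNA of neurons. The Mir137 entry was at 0.0819, 0.0364 and 0.0392 FPKM in the controls and 0.238, 0.0449 and 0.0272 in the cKO libraries, far under the filter of 1 FPKM, and was not tested. Its mature strand is printed as the sequence the title turns on (RefSeq, GRCm38.p6, chr3:118433901-118433923, plus strand, seed in capitals).
miR-137-3p: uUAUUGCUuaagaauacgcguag
Of 20 reported targets 19 were tested, with a median log2 difference of 0.04, none separated higher and 1 lower, beside 6.76% and 4.89% of all genes. The median was 0.00 without cKO 2. The lower gene was Cplx1, a complexin that clamps vesicle fusion, with 62.9, 47.6 and 54.3 FPKM in the controls and 46.7, 47.1 and 43.4 in the cKO libraries (log2 −0.27, SE 0.0963, adjusted p = 0.852). The vesicle calcium sensor Syt1, with 232 ± 38.7 and 201 ± 16.9 FPKM, and the candidate Csmd1, with 6.12 ± 1.04 and 7.89 ± 1.604, overlapped.

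Genes of synaptic release tended to lie lower in the cKO libraries, and none passed. All 30 listed genes were tested, 0 passed, the median log2 difference was −0.11, and on scaled FPKM 8 (26.7%) were separated lower and 0 higher, beside 4.89% and 6.76% of all genes. On deposited FPKM 4 were separated lower, beside 3.13% of all genes. With 1 library left out the median ran from −0.06 (without control 1) to −0.18 (without cKO 2). Cplx2, another complexin, had 133, 140 and 142 FPKM in the controls and 124, 116 and 112 in the cKO libraries, every cKO library below every control. Bsn, a scaffold of the active zone, had 6.61 ± 0.882 and 5.27 ± 0.688, with an overlap on deposited FPKM. Their log2 differences were −0.26 and −0.32, both with an adjusted p of 0.881. Of these 30 genes 20 had a mean of at least 20 FPKM, the level at which lower genes were most frequent over the whole table.

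Postsynaptic genes gave a median near 0. Of 34 glutamate receptor and scaffold genes 32 were tested, with a median of −0.03, and 5 were separated lower and 0 higher on scaled FPKM, beside 4.89% and 6.76% of all genes, and 3 lower on deposited FPKM, beside 3.13%. The median turned to 0.02 without cKO 3 and was −0.10 without control 3. Shank3, a master scaffold of the postsynaptic density, had 13.2, 12.4 and 11.6 FPKM in the controls and 10.8, 10.99 and 9.26 in the cKO libraries (log2 −0.27, SE 0.0947, adjusted p = 0.85), without overlap. The scaffold genes Homer1 and Dlg2 had log2 differences of −0.20 and −0.16. Of 15 GABA receptor genes 12 had log2 differences below 0, with a median of −0.07 (−0.14 to −0.05 with 1 library left out). On scaled FPKM 2 were separated lower and on deposited FPKM 3, beside 4.89% and 3.13% of all genes. Among them was Gabra3 with 12.9 ± 2.39 and 10.1 ± 0.167 FPKM. No interneuron marker was separated: Gad1, which makes GABA, had 45.1 ± 7.87 and 35.0 ± 5.28 FPKM. Of 14 immediate early genes 2 were separated lower on scaled FPKM, Fosl2 and Homer1, and 1 on deposited FPKM, beside 4.89% and 3.13% of all genes. Their median was −0.17, and 0.05 without control 2. Homer1 is on the postsynaptic list too and is counted in both, and its value sums all its transcripts.

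Markers of the principal neurons gave list medians that moved with single libraries. Of 10 dentate granule markers tested, 3 were separated higher and 1 lower, beside 6.76% and 4.89% of all genes. Their median was 0.05, but −0.27 without cKO 2, −0.05 without cKO 3 and −0.10 without cKO 1. The higher ones were Pla2g2f (tested only through its cKO values) and Tdo2, both described above, and Lct, the lactase gene. Pla2g2f was also known from earlier results of these data when the list was made. Lct had 2.82, 3.75 and 3.49 FPKM in the controls and 4.67, 7.60 and 4.33 in the cKO libraries (log2 0.60, adjusted p = 0.881). The lower was the calcium channel gene Trpc6, with 22.6, 19.9 and 21.01 against 16.9, 17.8 and 17.2 (log2 −0.30, SE 0.0789, adjusted p = 0.85). Of 8 CA1 markers 6 had log2 differences below 0 and 1 was separated lower, with a median of −0.17 that ran from −0.26 (without cKO 2) to −0.05 (without cKO 3) with 1 library left out. The separated gene, Wfs1, a protein of the endoplasmic reticulum, had 7.61, 7.58 and 7.62 FPKM in the controls and 5.22, 6.26 and 5.30 in the cKO libraries, a tight control group above all 3 cKO libraries (log2 −0.43, SE 0.11, adjusted p = 0.85). Among 10 CA2 and CA3 markers, with a median of 0.00, Bok, a protein of the BCL2 family, was separated higher, with 2.96, 7.84 and 7.65 against 12.1, 8.96 and 9.97 FPKM. Summed FPKM of the dentate markers was 65.5 to 78.4 in the controls and 66.4 to 81.0 in the cKO libraries.

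**Figure D5:**
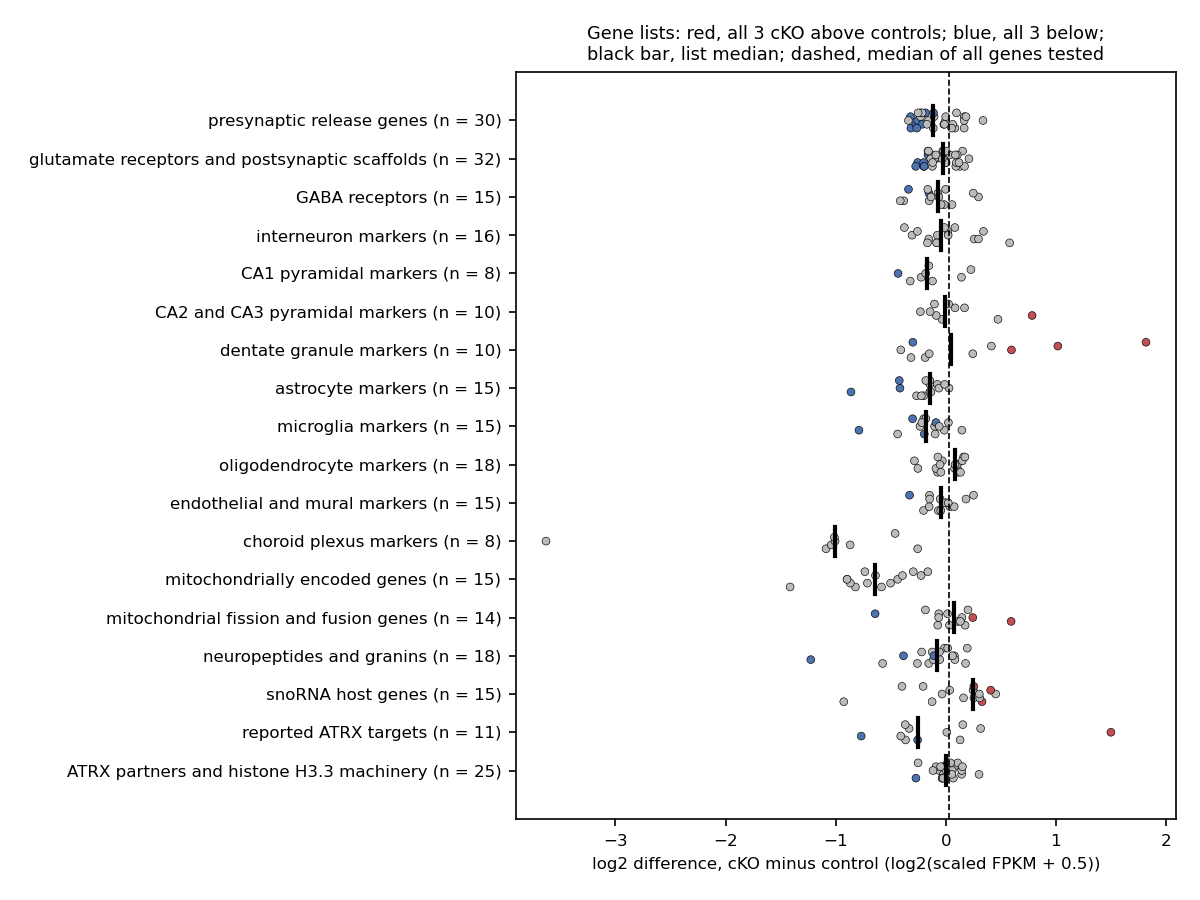
Log2 difference, cKO minus control, of each tested member (points) of 18 gene lists, with the list median (bar) and the median of all genes tested (dashed line). Choroid plexus and mitochondrially encoded genes have the lowest medians, −1.01 and −0.64, without a separated member, while Pla2g2f (1.82) stands out among dentate granule markers.

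Astrocyte and microglia markers mostly had log2 differences below 0. Of 15 astrocyte markers 14 had a log2 difference below 0, the median was −0.15, and 3 were separated lower on scaled FPKM: the water channel gene Aqp4 (52.3 ± 4.36 and 39.8 ± 5.51 FPKM), Fgfr3 and the connexin gene Gja1. On deposited FPKM 2 were separated lower, and the shares of all genes were 4.89% and 3.13%. Gja1 had 78.8, 23.2 and 22.5 FPKM in the controls and 18.7, 20.8 and 17.7 in the cKO libraries, so control 1 stood far above the other 5 libraries. Of 15 microglia markers 13 lay below 0, with a median of −0.18, and 4 were separated lower on scaled FPKM but 1 on deposited FPKM. That median was −0.11 without cKO 2 and −0.12 without control 3. Cx3cr1, the fractalkine receptor, had 1.11, 2.48 and 1.63 against 0.778, 0.787 and 0.745 FPKM, and P2ry12 had 34.4 ± 1.41 and 30.4 ± 2.52. Cx3cr1 met the filter of 1 FPKM through the controls only. The 18 oligodendrocyte markers gave no separated gene and a median of 0.08 (0.24 without cKO 2, −0.04 without cKO 1), with summed FPKM of 1678 to 1902 in the controls and 2130, 1201 and 2186 in cKO 1 to 3. Of 15 endothelial and mural markers 1 was separated lower on scaled FPKM and none on deposited FPKM: Vtn, a plasma adhesion protein, with 11.9 ± 0.825 and 9.53 ± 1.47 FPKM.

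Choroid plexus RNA differed widely between libraries, also within each genotype. Summed FPKM of its 11 markers was 4259, 1705 and 1431 in the controls and 2675, 93.1 and 101 in the cKO libraries, so cKO 1 lay between controls 1 and 2. Ttr, the thyroid hormone carrier made there, had 4002, 1570 and 1309 FPKM against 2499, 40.9 and 43.03. All 8 markers tested had log2 differences below 0, with a median of −1.01 (−0.60 without cKO 3), and none was separated. The part of choroid plexus tissue in the values of Slc13a4, and of the autotaxin gene Enpp2 with 216, 114 and 106 against 151, 39.0 and 52.0 FPKM, was not tested. Globin genes, which mark blood, had overlapping groups, and the median of 6 blood markers was −0.35, with −0.12 without cKO 2 and −0.56 without cKO 3. Of the 6, 1 was separated, and it was higher in cKO, beside 6.76% of all genes. That gene was Bpgm, with 30.4 ± 0.17 and 35.3 ± 1.29 FPKM (log2 0.19, adjusted p = 0.881).

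Mitochondrially encoded transcripts overlapped too. Their summed FPKM was 42768, 74511 and 61151 in the controls and 46286, 34242 and 45718 in the cKO libraries, so control 1 fell within the cKO range. All 15 genes had log2 differences below 0 and the median was −0.64, without a separated gene. It was −0.26 without control 2, the library with the highest sum, and −0.37 with quantile normalization. The complex I gene mt-Nd1 had 3425 ± 1091 and 2079 ± 448 FPKM.

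Nuclear genes of mitochondrial shape gave a mixed list. Of 14 tested, Mtfp1 was separated lower, and the dynamin receptors Mief1 and Mief2 were separated higher on scaled FPKM. Mief1 had 3.12, 3.01 and 4.58 FPKM in the controls and 5.18, 6.99 and 4.91 in the cKO libraries (log2 0.59, SE 0.197, adjusted p = 0.85), and Mief2 had 3.75 ± 0.539 and 4.59 ± 0.605 and overlapped on deposited FPKM. The fusion gene Mfn1 overlapped, with 14.4 ± 2.07 and 16.8 ± 2.23 FPKM. The median of the list was 0.07 (0.04 without control 1). Of all genes, 6.76% were separated higher and 4.89% lower. Mtfp1 was known from earlier results of these data when the list was made, so its count cannot be set against the share of lower genes.

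Of 5 genes of the NALCN sodium leak complex, 2 were separated lower on scaled FPKM, Fam155a and Fam155b, and 1, Fam155a, on deposited FPKM, beside 4.89% and 3.13% of all genes. Fam155a was known from earlier results of these data when the list was made, so its count cannot be set against those shares. The channel gene Nalcn had 21.1, 18.1 and 18.8 FPKM in the controls and 19.5, 20.3 and 17.7 in the cKO libraries, a log2 difference of −0.03 with a 95% interval from −0.23 to 0.16. Fam155b, listed as Tmem28, had 5.37, 4.69 and 4.55 against 4.52, 4.65 and 4.02 FPKM, and the scaffold Unc79 had 7.82 ± 0.762 and 9.24 ± 1.86. Its partner Unc80 had 31.7, 28.5 and 30.6 FPKM against 33.1, 34.1 and 27.1, with overlapping groups. Among 20 voltage-gated sodium and calcium channel genes tested, 2 were separated higher and 1 lower on scaled FPKM (10% and 5%, beside 6.76% and 4.89% of all genes), and none on deposited FPKM. The T-type calcium channel gene Cacna1h had 10.8, 9.25 and 7.31 FPKM in the controls and 14.9, 15.4 and 10.5 in the cKO libraries (log2 0.53, SE 0.174, adjusted p = 0.85).

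Neuropeptide and granin genes gave 3 separated lower of 18 on scaled FPKM and 1, Resp18, on deposited FPKM, beside 4.89% and 3.13% of all genes. Pcsk1n, an inhibitor of a prohormone convertase, had 17.7, 14.7 and 13.8 FPKM in the controls and 14.2, 10.8 and 10.6 in the cKO libraries (log2 −0.38, SE 0.131, adjusted p = 0.85). Of 15 host genes of small nucleolar RNAs tested 3 were separated higher on scaled FPKM, 4 on deposited FPKM, and none lower, beside 6.76% and 6.59% of all genes separated higher. Their median was 0.25, but 0.08 without cKO 2, the library of high background, 0.16 without cKO 1 and 0.07 with library weights. Snhg8 had 78.1, 78.3 and 75.9 FPKM in the controls and 105.9, 95.5 and 112 in the cKO libraries, every cKO library above every control (log2 0.41, SE 0.105, adjusted p = 0.85). Snhg8 was known from earlier results of these data when the list was made, so its count cannot be set against the shares of all genes. Zfas1 had 10.7 ± 0.291 and 13.1 ± 1.21, and Snhg15 4.09 ± 0.299 and 5.33 ± 0.224. Gas5 lay the other way, with 151, 178 and 183 FPKM in the controls and 66.1, 163 and 68.7 in the cKO libraries, and overlapped through cKO 2. The small RNAs these hosts carry lie within them, and their reads cannot be separated.

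Lists of damage, immune and imprinted genes held few separated members. Of 16 p53 and DNA damage genes tested 1 was separated, the nuclease Aen, with 7.68 ± 0.0409 and 9.13 ± 0.675 FPKM. Of 11 interferon and antigen presentation genes 2 were separated higher and 1 lower, Irf9, a factor of the interferon response, with 3.00 ± 0.324 and 2.30 ± 0.155. Of 20 imprinted genes 3 were separated lower and none higher: Inpp5f (29.7 ± 2.18 and 24.9 ± 1.66 FPKM), the growth inhibitor Cdkn1c (2.59 ± 0.73 and 1.45 ± 0.59) and Zrsr1 (41.2 ± 3.90 and 36.0 ± 2.64). Their adjusted p-values ran from 0.852 to 0.886. The shares for these lists lie on either side of the 6.76% and 4.89% of all genes, and each rests on 3 or fewer genes.

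The leading genes were set beside the female libraries of the series as values only. The background of those libraries was above that of every male library except cKO 2, which had 0.450 FPKM. The median of the receptor genes was 0.279, 0.142 and 0.868 FPKM in control females 1 to 3 and 0.480, 2.95 and 3.02 in cKO females 1 to 3. Control females 1 and 2 thus lay below the male library cKO 2. Of the female libraries, cKO females 2 and 3 hold 1.16 and 2.86 Gb. On deposited FPKM, Mtfp1, Nefh and Fam155a were lower in all 3 cKO females than in all 3 control females, at levels of at least 10.7 FPKM. Pla2g2f, Tex13c2 and Tdo2 lay higher, but Pla2g2f had 2.27 and 2.71 FPKM in cKO females 2 and 3, and Tex13c2 had 2.35 in cKO female 3, all under the background of those libraries, so these values cannot be read as expression. Tdo2 had 4.91 and 5.95 FPKM there, less than 2 times the background. The other 18 leading genes overlapped. Over all 15414 genes, 11.4% were separated higher and 7.74% lower in the female libraries. Whether any effect differs between the sexes was not tested here.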

How the data were processed

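The submitters' processing notes name HISAT2 2.0.4, StringTie and the build GRCm38.p6, without their roles. The authors deposited, per library, the FPKM and the coverage (mean reads over each base) of 137862 annotated transcripts. Annotation release and strandedness: not given in the sources used here. FPKM was summed by gene identifier. Mapped sequence was computed per library as coverage over FPKM.

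Libraries were scaled by median-of-ratios factors (0.957 to 1.04) over genes with a mean of at least 5 FPKM. limma 3.58.1 (R 4.3.3, trend and robust) was fitted to log2(scaled FPKM + 0.5), so differences of low genes are understated. Two-sided p-values were adjusted (Benjamini-Hochberg) over all 15414 genes, with a threshold of 0.05. Values printed per library are deposited FPKM. The script was tested on simulated data. Genes named were the 12 of smallest p and the 8 of largest difference in each direction, up to 4 per list, and genes known from earlier results. The 8 were drawn from genes with a mean of at least 2 FPKM in the higher group, an unadjusted p under 0.05 and groups that did not overlap. At most 3 predicted genes per direction were taken among the 12, and likewise among the 8. Rnf112, Hlf, Igfbp4, Cwc25, Rsad1 and Gm12245 were named after their values were seen. The members, lists and settings were chosen with earlier results of these data known. The lists are described, not tested. Gene positions are 1-based.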

Additional observations from a re-analysis of the deposited data

How the results depend on the processing

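The count of 0 genes in limma became 2 with no filter on low values or on deposited FPKM without scaling (Pla2g2f and Cep112 in both), 9 with library weights, 5 with voom on estimated reads, 2 in a fit over all 12 libraries and 2 among genes with 1 leading transcript. It stayed at 0 with other pseudocounts, other FPKM filters, quantile normalization, background subtraction and non-robust moderation. Leaving out 1 library gave 0 to 4 calls. They were 4 without control 1 (Sypl, Gm10128, Gm22776 and Pcdhga2) and 1 (Rragd) without cKO 2, which has the highest background. None of them is a leading gene. Of 15414 genes, 1795 separated the groups, against 5119 with no filter, 1062 with the filter at 5 FPKM and 2914 to 3835 with 1 library left out, where fewer values need to lie apart.

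The log2 difference of Atrx stayed between −0.51 and −0.29 in all alternatives and between −0.41 and −0.29 with 1 library left out, without passing. With the replicate block, 0 genes passed and Atrx had −0.34. The numbers were not taken as pairs: deviations of same-numbered libraries correlated at 0.081, −0.116 and 0.20 for numbers 1 to 3, and control 1 correlated best with cKO 2.

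Of 90 named genes, 11 passed in at least 1 alternative and 2 turned their sign without passing. Unc80 (0.03) had −0.0207 with voom and −0.0261 to 0.1075 with 1 library left out, turning without cKO 2. Uty (−0.10) had 0.0108 with library weights and −0.3245 to 0.081 with 1 library left out, turning without control 3. Genes near 1 FPKM rest on few reads, most of all in cKO 2 with 3.66 Gb.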

Other observations

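Over all genes tested, 6.76% were separated higher and 4.89% lower, and the split differed by gene class. Of 258 entries of the class TEC, transcribed regions that await experimental evidence, 18.99% were separated higher and 1.94% lower, with a median log2 difference of 0.30. Of 280 small nucleolar RNAs, 7.14% were higher and 0.714% lower, and of 235 small nuclear RNAs 6.81% were higher and 0% lower. Of 12333 protein-coding genes, 6.28% were higher and 5.39% lower, with a median of 0.02. The part of the background and depth of cKO 2 in these class values was not tested. Chromosome 14 held 3.69% of the genes tested and 19 of the 200 genes of smallest p (9.5%), and 16.2% of its genes were separated.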
